A study of Mus musculus with 3 samples.

Results

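The genes described here are 8 modulators of Wnt, BMP and growth factor signalling, read in dendritic cells that had migrated to the skin-draining lymph nodes of mice with inflamed ear skin. They are Wnt3, Dkk2, Dact3, Ctnnb1, Bmper, Mdk, Igfbp7 and Egfl6, 8 of the 22548 genes in the deposited matrix. All 8 were chosen on measured values of these same cells and populations, so their levels, ratios, tag relations and co-detection are a description and no test is made of them.

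Wnt ligands bind Frizzled and LRP5 or LRP6 at the cell surface, and the signal stabilises β-catenin, which enters the nucleus and works with TCF and LEF factors. BMP ligands act through receptor kinases and Smad factors, and secreted proteins that bind them set how far the signal spreads. In dendritic cells β-catenin is known for its part in maturation and in the induction of tolerance.

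The cells came from mice described as SiglechiCreTg/0, ROSA26LoxP-STOP-LoxP-RFP and Tnfsf4KI/+. All 4 groups share these alleles. BFP was knocked into 1 copy of Tnfsf4 and reports that gene, which encodes OX40L, a costimulatory ligand for T cells. RFP stays on in any cell in which, or in whose ancestors, Cre driven by Siglech has acted, so it records past and not present activity of Siglech, a gene known from plasmacytoid dendritic cells. MC903 (calcipotriol, an analogue of vitamin D that causes dermatitis) was given to all mice on days 0, 2 and 4, with sorting on day 5. No untreated mice were analysed here. The gate took B220- XCR1- CD326- cells with high MHC class II and low to intermediate CD11c, meant to leave out cDC1, the type 1 conventional dendritic cells, and Langerhans cells. The 4 populations were double-positive (BFP+RFP+), RFP single-positive (BFP-RFP+), BFP single-positive (BFP+RFP-) and double-negative (BFP-RFP-) cells. They were pooled as 5200, 5200, 10400 and 5200 cells after each had been marked with a hashtag antibody. The sources used here give neither the age nor the number of the mice.

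Each hashtag and antibody was read through a DNA barcode of 15 bases. They are shown because the barcode alone assigns a cell to its population or gives its surface CD8a, and any 2 of the 8 barcodes differ at 7 to 14 positions. All letters are capitals because the whole barcode was read.
Hashtag 1, BFP+RFP+: ACCCACCAGTAAGAC
Hashtag 2, BFP-RFP+: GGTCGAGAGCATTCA
Hashtag 3, BFP+RFP-: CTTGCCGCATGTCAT
Hashtag 4, BFP-RFP-: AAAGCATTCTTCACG
CD8a antibody: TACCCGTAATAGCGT

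The mRNA, antibody and hashtag libraries are 1 capture of 1 pool, and all 6079 barcodes hold UMIs (unique molecular identifiers, each standing for 1 captured molecule) of all 3 libraries. Each population is therefore 1 sample, and no p-value or replicate error can be given. Cells were kept when 1 hashtag held at least 80% of their hashtag UMIs, with no fewer than 1000 mRNA UMIs and a mitochondrial share of at most 10%. This left 5023 cells: 842 double-positive, 982 RFP single-positive, 2185 BFP single-positive and 1014 double-negative cells. Their mRNA UMIs summed to 14140272, 15746616, 35590897 and 14877282. Median depth per cell was 15182, 14330, 14850 and 13884 UMIs in the same order. The 12 migratory dendritic cell markers were found in 52.3% (Ccl17) to 96.2% (Ccr7) of kept cells, with Fscn1 in 93.8%. The 8 markers of cDC1 were found in 0.159% (Tlr3) to 12.8% (Naaa), with Xcr1 in 0.219%. The 6 markers of Langerhans cells were found in 0.0995% (Cd207) to 21.6% (Tgfbr1). Tnfsf4 stood at 305, 53.0, 102 and 19.8 CPM, and tdRFP at 23.5, 21.0, 0.169 and 0.672 CPM. Siglech itself had 25 UMIs in RFP single-positive cells, and every other population had 1.

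Other cells were present and differed between populations. The summed level of 10 monocyte and macrophage markers, all 10 of them detected, was 156, 447, 115 and 557 CPM in double-positive, RFP single-positive, BFP single-positive and double-negative cells. Markers of cDC1 summed to 56.9, 139, 47.7 and 83.0 CPM, and those of Langerhans cells to 53.5, 66.3, 53.6 and 60.1 CPM. Markers of T and NK cells summed to 74.0, 112, 121 and 91.2 CPM, and those of B cells to 94.3, 61.3, 94.0 and 60.1 CPM. Of 12 clusters of cells, 3 were named for another cell type and held 454 of the kept cells. Cluster 10 was not among the 3, with 24 of its 37 cells RFP single-positive. Its monocyte and macrophage markers summed to 15021 CPM, against 4140 CPM in cluster 11, named as monocyte or macrophage-like. Leaving out the 3 named clusters moved 2 of the 32 log2 ratios of the 8 genes beyond their counting interval. The ratio of BFP+ over BFP- cells became 0.84 for Mdk within RFP-, against 0.42 with them, and 2.06 for Egfl6 within RFP+, against 1.71.

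Levels are given in CPM, UMIs of the gene per 1000000 mRNA UMIs of the population, with an exact 95% Poisson interval. All intervals cover counting error only. Because 3' UMIs are not scaled by length, levels are compared between populations and never between genes. In bulk sums of this kind, fewer cells that hold a transcript and less transcript per cell cannot be told apart, so the share of cells with a UMI is given as well. The cut on hashtags set which cells counted: the 46 cells at 80% to under 85% had 95.1 CPM of Dkk2, 46.7 of Bmper and 71.3 of Ctnnb1, and the 58 cells at 75% to under 80%, left out, had 73.8, 33.2 and 57.8 CPM.

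The promoters of 3 genes are shown because the pair Dkk2 and Bmper was detected together most often, and because Dact3 carries a Smad-type motif. Each is the 250 bases before the annotated start, 5′ to 3′ on the gene's strand, taken from RefSeq on GRCm38.p6, a build other than that of the matrix. Capitals in Bmper mark TCAAAG, the reverse complement of the TCF/LEF motif CTTTGA, and capitals in Dact3 mark GGCGCC, a motif of BMP-responsive Smads.
Dkk2, chr3:132085042-132085291, plus strand: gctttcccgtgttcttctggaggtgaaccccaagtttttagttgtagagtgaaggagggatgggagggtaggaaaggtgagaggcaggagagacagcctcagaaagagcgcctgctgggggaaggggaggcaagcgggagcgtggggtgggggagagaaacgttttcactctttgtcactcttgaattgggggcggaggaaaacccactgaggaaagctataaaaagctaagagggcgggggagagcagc
Bmper, chr9:23222826-23223075, plus strand: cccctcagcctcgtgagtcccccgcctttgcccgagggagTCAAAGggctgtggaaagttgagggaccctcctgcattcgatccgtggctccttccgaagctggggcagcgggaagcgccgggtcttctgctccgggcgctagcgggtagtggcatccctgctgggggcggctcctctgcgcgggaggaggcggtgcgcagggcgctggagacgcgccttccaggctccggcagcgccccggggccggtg
Dact3, chr7:16875067-16875316, plus strand: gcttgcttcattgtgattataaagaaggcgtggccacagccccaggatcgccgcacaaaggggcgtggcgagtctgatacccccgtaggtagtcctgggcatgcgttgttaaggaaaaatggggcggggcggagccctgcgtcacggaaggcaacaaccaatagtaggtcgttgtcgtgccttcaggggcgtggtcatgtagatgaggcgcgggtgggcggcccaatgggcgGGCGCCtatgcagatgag

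Of the 8 genes, 7 matched the promoter table, Mdk being the exception. On either strand, CTTTGA was found in 1 of these 7 genes (Bmper), against 13.8% of 32851 windows of the same length. GGCGCC was found in 2 (Dact3, and Ctnnb1 in its second entry), against 9.59% of windows. The AP-1 motif TGANTCA and the STAT motif TTCNNNGAA were found in 0 of 7, against 6.75% and 7.02% of windows. Base composition differed, with 55.6% GC in Dkk2, 71.6% in Bmper and 60.4% in Dact3, beside a median of 52.4% over all windows. These matches describe letters in a window and say nothing of binding.

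Of the 8 genes, 7 had their highest level in double-positive cells and their lowest in double-negative cells, and Ctnnb1 had the opposite order at both ends. The intervals of double-positive and double-negative cells are given for each gene below. How many of all genes have intervals apart in these populations was not computed, so nothing is read from that. RFP+ cells exceeded RFP- cells by more than BFP+ exceeded BFP- cells for Igfbp7, Mdk, Bmper, Dact3 and Wnt3, whereas for Dkk2 the sizes were close.

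**Figure D1:**
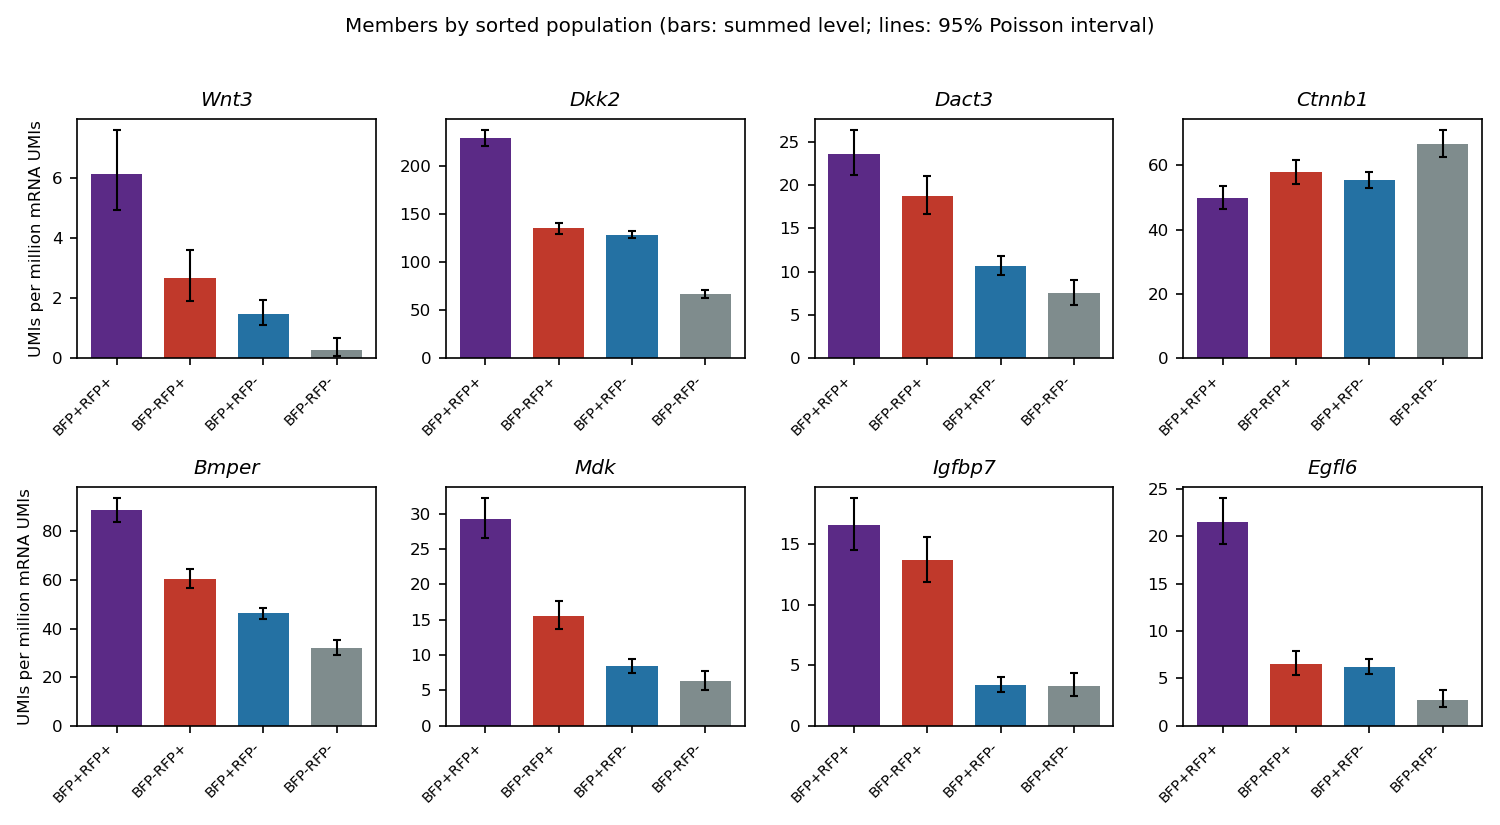
Level of each of the 8 genes in CPM by population, from BFP+RFP+ at the left to BFP-RFP- at the right, with 1 sample per population and bars for the exact 95% Poisson interval. Dkk2 stands at 229 CPM in BFP+RFP+ and 66.9 in BFP-RFP- cells, while Ctnnb1 stands at 49.9 and 66.5.

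Wnt3 (ENSMUSG00000000125), a Wnt ligand, had 186 UMIs in all, the smallest count of the 8 to work with. It had 87 UMIs in double-positive cells, 42 in RFP single-positive cells, 53 in BFP single-positive cells and 4 in double-negative cells. These are 6.15 CPM (4.93 to 7.59), 2.67 CPM (1.92 to 3.61), 1.49 CPM (1.12 to 1.95) and 0.269 CPM (0.0733 to 0.688). Double-positive cells were above and double-negative cells below all other intervals, and the intervals of RFP single-positive and BFP single-positive cells overlapped between 1.92 and 1.95 CPM. The log2 ratio of BFP+ over BFP- was 1.20 (0.66 to 1.77) within RFP+, and that of RFP+ over RFP- was 2.04 (1.54 to 2.57) within BFP+. Both ratios against double-negative cells, 2.31 (1.03 to 4.40) for BFP single-positive and 3.16 (1.85 to 5.25) for RFP single-positive cells, rest on its 4 UMIs.

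Dkk2 (ENSMUSG00000028031), a secreted protein that binds LRP5 and LRP6 and modulates Wnt signalling, mostly as an inhibitor, stood at 229 CPM (222 to 237) in double-positive cells, 135 CPM (130 to 141) in RFP single-positive cells, 129 CPM (125 to 132) in BFP single-positive cells and 66.9 CPM (62.9 to 71.2) in double-negative cells. The single-positive populations had nearly the same level, with intervals that overlapped between 130 and 132 CPM. Having either reporter went with a similar difference: the log2 ratio for BFP was 0.76 (0.68 to 0.84) within RFP+ and 0.94 (0.84 to 1.04) within RFP-, and for RFP it was 0.83 (0.77 to 0.90) within BFP+ and 1.01 (0.91 to 1.13) within BFP-. Dkk2 UMIs were concentrated in few cells. Only 1382 of 5023 cells had a UMI, and the highest cell had 159.

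Dact3 (ENSMUSG00000078794), an intracellular protein that binds Dishevelled and is known to restrain Wnt signalling, followed RFP more than BFP. It stood at 23.6 CPM (21.2 to 26.3) in double-positive cells, 18.7 CPM (16.7 to 21.0) in RFP single-positive cells, 10.6 CPM (9.58 to 11.7) in BFP single-positive cells and 7.53 CPM (6.20 to 9.06) in double-negative cells. Both RFP+ populations lay above both RFP- populations. The log2 ratio for RFP was 1.15 within BFP+ and 1.31 within BFP-, while that for BFP was 0.33 within RFP+ and 0.49 within RFP-.

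Ctnnb1 (ENSMUSG00000006932) encodes β-catenin itself and was the only gene of the 8 that was lowest in double-positive cells. It stood at 49.9 CPM (46.2 to 53.7) in double-positive cells, 57.9 CPM (54.2 to 61.7) in RFP single-positive cells, 55.3 CPM (52.9 to 57.8) in BFP single-positive cells and 66.5 CPM (62.5 to 70.8) in double-negative cells. The differences were small: the log2 ratio for BFP was -0.21 within RFP+ and -0.27 within RFP-, and for RFP -0.15 within BFP+ and -0.20 within BFP-. A UMI was found in 53.2%, 55.1%, 52.3% and 55.0% of double-positive, RFP single-positive, BFP single-positive and double-negative cells.

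Bmper (ENSMUSG00000031963), a secreted protein that binds BMPs and can limit or promote their signal, stood at 88.8 CPM (83.9 to 93.8) in double-positive cells, 60.5 CPM (56.7 to 64.4) in RFP single-positive cells, 46.2 CPM (44.0 to 48.5) in BFP single-positive cells and 32.1 CPM (29.3 to 35.1) in double-negative cells. No 2 of these intervals overlapped. It was spread more evenly over cells than Dkk2: a UMI was found in 1720 cells, and the 5 cells with most held 1.92% of its UMIs. The log2 ratio for RFP was 0.94 within BFP+ and 0.91 within BFP-, and for BFP 0.55 within RFP+ and 0.52 within RFP-.

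Mdk (ENSMUSG00000027239) encodes midkine, a secreted heparin-binding growth factor. It stood at 29.3 CPM (26.5 to 32.2) in double-positive cells, 15.6 CPM (13.7 to 17.6) in RFP single-positive cells, 8.46 CPM (7.53 to 9.47) in BFP single-positive cells and 6.32 CPM (5.11 to 7.73) in double-negative cells. The RFP- populations overlapped and the RFP+ populations did not. The log2 ratio for BFP was 0.91 (0.68 to 1.15) within RFP+ and 0.42 (0.08 to 0.77) within RFP-, and for RFP it was 1.79 within BFP+ and 1.30 within BFP-.

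Igfbp7 (ENSMUSG00000036256), a secreted protein that binds insulin-like growth factors, differed by RFP and hardly by BFP. It stood at 16.5 CPM (14.5 to 18.8) in double-positive cells, 13.7 CPM (11.9 to 15.6) in RFP single-positive cells, 3.40 CPM (2.82 to 4.06) in BFP single-positive cells and 3.29 CPM (2.44 to 4.35) in double-negative cells. The log2 ratio for RFP was 2.28 (1.96 to 2.61) within BFP+ and 2.04 (1.60 to 2.53) within BFP-. Its ratios for BFP were 0.28 (0.00 to 0.55) within RFP+ and 0.04 (-0.44 to 0.56) within RFP-, and their sign turned with the weighting: with each cell given the same weight the ratio within RFP+ was -0.26, and without the 5 cells that held most of its UMIs the ratios were -0.04 within RFP+ and -0.22 within RFP-.

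Egfl6 (ENSMUSG00000000402), a secreted EGF-like protein of the extracellular matrix, stood at 21.5 CPM (19.1 to 24.1) in double-positive cells, 6.54 CPM (5.34 to 7.93) in RFP single-positive cells, 6.21 CPM (5.42 to 7.08) in BFP single-positive cells and 2.76 CPM (1.98 to 3.74) in double-negative cells. As with Dkk2, the single-positive populations overlapped, here over most of their range. The log2 ratio for BFP was 1.71 (1.39 to 2.05) within RFP+ and 1.16 (0.69 to 1.69) within RFP-, and for RFP it was 1.79 (1.54 to 2.05) within BFP+ and 1.24 (0.71 to 1.81) within BFP-. The 5 cells with most UMIs held 10.3% of all its UMIs. By population, such 5 cells held 22.7% in double-positive, 41.7% in RFP single-positive, 17.2% in BFP single-positive and 78.0% in double-negative cells. Both ratios against double-negative cells thus rest on 41 UMIs in 13 cells.

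Counted at a fold of 1.5 among genes with at least 100 UMIs in both populations together, 4 of the 8 genes were higher in double-positive than in RFP single-positive cells, where 1.85% of 9463 genes were higher and 7.13% lower. In BFP single-positive against double-negative cells 2 were higher, with 1.83% of 10237 genes higher and 3.97% lower. In double-positive against BFP single-positive cells 7 were higher, with 3.48% of 10139 genes higher and 5.27% lower. In RFP single-positive against double-negative cells 6 were higher, with 4.03% of 9612 genes higher and 2.66% lower. None of the 8 was lower by that fold in any of these 4 comparisons. Wnt3 had under 100 UMIs in both comparisons against double-negative cells and could not be counted there. The median log2 ratio of the 8 genes, with Wnt3 in all of them, was 0.66, 0.51, 1.47 and 1.27 in the order just given. Over all genes counted it was -0.09, -0.07, -0.03 and -0.01. The genes were chosen on these contrasts, so nothing is read from these shares, and the 4 comparisons share populations.

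**Figure D2:**
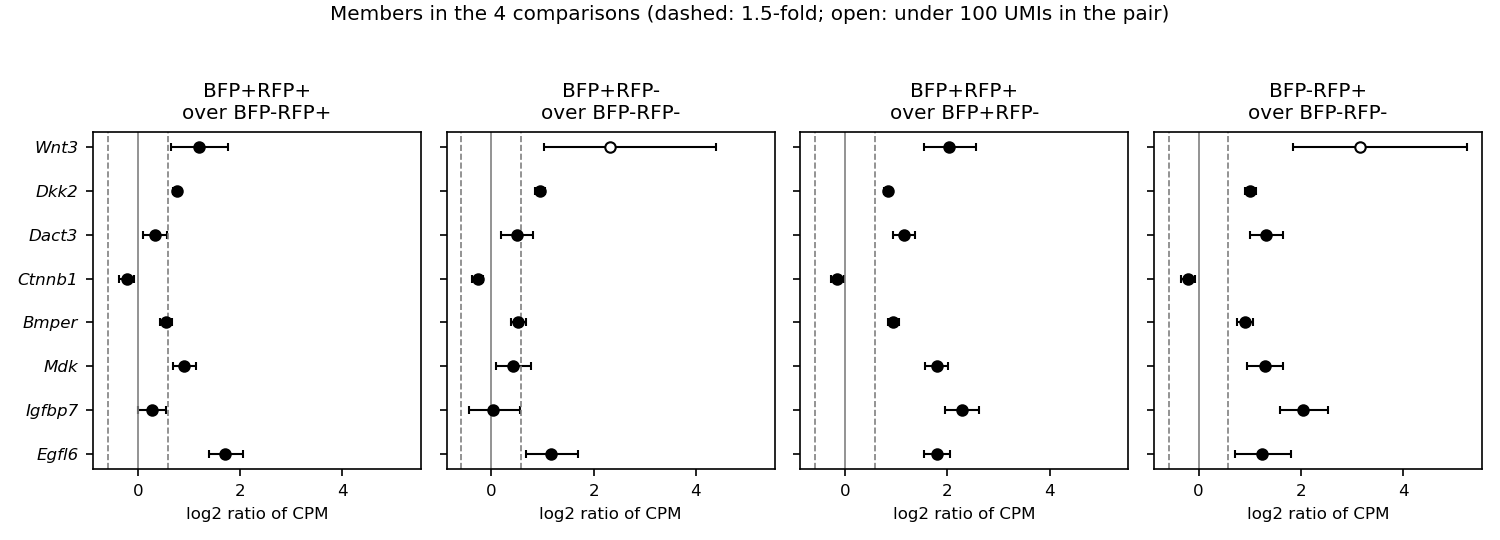
Log2 ratio of each of the 8 genes in the 4 comparisons, with exact 95% intervals for counting error, where values above 0 are higher in the BFP+ or RFP+ population named first. Igfbp7 stands at 2.28 and 2.04 for RFP and at 0.28 and 0.04 for BFP, while Dkk2 lies between 0.76 and 1.01 in all 4.

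To compare shares of cells, each cell was thinned to 5000 mRNA UMIs, which left 786, 900, 2032 and 928 cells of double-positive, RFP single-positive, BFP single-positive and double-negative populations. Dkk2 was then found in 30.9%, 18.9%, 20.2% and 10.5% of cells, and Bmper in 27.6%, 20.1%, 16.4% and 12.1%. Before thinning the shares were 43.7%, 25.5%, 27.8% and 15.4% for Dkk2 and 49.5%, 36.5%, 32.4% and 23.4% for Bmper. Cells of the T or NK cell-like cluster had a Dkk2 UMI in 7.14% and a Bmper UMI in 4.59% of 196 thinned cells. Dendritic cell transcripts were found in this cluster too. Before thinning, Fscn1 was found in 43.0%, Zbtb46 in 30.4% and Flt3 in 27.4% of its cells. Its shares are therefore a comparison and not a floor for cells without these genes. All 4 populations lay above its shares of Dkk2 and Bmper. For Dkk2, however, the interval of double-negative cells (8.56% to 12.6%) overlapped that of the T or NK cell-like cells (3.96% to 11.7%). The T or NK cell-like cells were not alike, however: Dkk2 stood at 170, 29.7, 36.6 and 14.5 CPM in those of double-positive, RFP single-positive, BFP single-positive and double-negative origin, Bmper at 56.2, 18.8, 11.1 and 0 CPM, and Igfbp7 at 26.4, 6.26, 0.691 and 2.42 CPM. The pooled share mixes these.

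The rarer genes were found in few cells of any population. Mdk was found in 10.6%, 5.78%, 3.20% and 3.12% of thinned double-positive, RFP single-positive, BFP single-positive and double-negative cells, and in 1.53% of the T or NK cell-like cells. Dact3 was found in 8.40%, 5.67%, 3.44% and 2.69%, Egfl6 in 5.60%, 2.22%, 1.87% and 0.970%, and Igfbp7 in 4.33%, 4.44%, 0.935% and 1.40%. Wnt3 was found in 2.80%, 0.778% and 0.492% of the first 3 populations and in 0 of 928 double-negative cells. A count of 0 at this thinned depth allows a share of cells with a UMI of up to 0.323% (3 counts of the total), and 0.296% of double-negative cells had a Wnt3 UMI before thinning. The share in the T or NK cell-like cells was 0.510% for Dact3, 1.53% for Egfl6, 1.02% for Igfbp7 and 0.510% for Wnt3. These are 1, 3, 2 and 1 of 196 cells, with upper bounds of 2.81%, 4.41%, 3.64% and 2.81%. For Mdk it was 3 cells, with an upper bound of 4.41%. At or below the share in the T or NK cell-like cells were Egfl6 in double-negative cells and Igfbp7 in BFP single-positive cells. So was Wnt3 in BFP single-positive and double-negative cells. No order is read from these shares. Under the upper bounds also lay Egfl6 in both single-positive populations, Igfbp7 and Dact3 in double-negative cells, Mdk in both RFP- populations and Wnt3 in both RFP+ populations. These are not told apart from the T or NK cell-like cells here. Because that cluster held dendritic cell transcripts too, the comparison cannot say which shares are background. Within a population these UMIs were not spread evenly over clusters. In BFP single-positive cells, cluster 5 had 20.3 CPM of Igfbp7 and 8.27 CPM of Wnt3, and the T or NK cell-like cluster had 0.691 CPM of each. In double-negative cells, cluster 8 had 30.8 CPM of Egfl6, on 18 UMIs over its 37 cells. Ctnnb1 was found in 23.4%, 24.8%, 23.0% and 27.2%, and in 27.6% of the T or NK cell-like cells, which are known to express it.

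A cell rarely held many of these transcripts at once. Leaving out Ctnnb1, a thinned double-positive cell held on average 0.902 of the 7 genes, a RFP single-positive cell 0.579, a BFP single-positive cell 0.466 and a double-negative cell 0.307. At least 3 of the 7 were found in 6.49% of double-positive cells, 2.56% of RFP single-positive cells, 1.33% of BFP single-positive cells and 1.08% of double-negative cells. None of the 7 was found in 43.5%, 59.3%, 64.7% and 75% of these cells, in the same order.

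Which genes were found together was compared with the number that their shares within each population would give. Dkk2 and Bmper were found together in 312 cells against 181, an odds ratio over populations of 2.85. This was the most frequent pair among the 7 genes without Ctnnb1, and it exceeded the product of the shares in all 4 populations, with 107 cells against 67.1 in double-positive, 59 against 34.2 in RFP single-positive, 125 against 67.6 in BFP single-positive and 21 against 11.7 in double-negative cells. At 10000 UMIs per cell the pair was found in 466 cells against 332. Dkk2 with Mdk (85 against 51.7), Dkk2 with Dact3 (75 against 46.8) and Dact3 with Mdk (27 against 12.9) also exceeded the product. Dact3 with Wnt3 had the highest odds ratio, 3.91, but on 8 cells. In all, 14 of the 28 pairs had an odds ratio of at least 1.5, some on few cells, such as Wnt3 with Egfl6 (3 against 1.57). Pairs of other genes were not counted, so nothing is read from that number. At 5000 UMIs all 7 pairs with Ctnnb1 were under 1. Bmper with Ctnnb1 was closest to 1 at 0.96 (198 cells against 203), and at 10000 UMIs it was 1.05 (481 against 472).

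**Figure D3:**
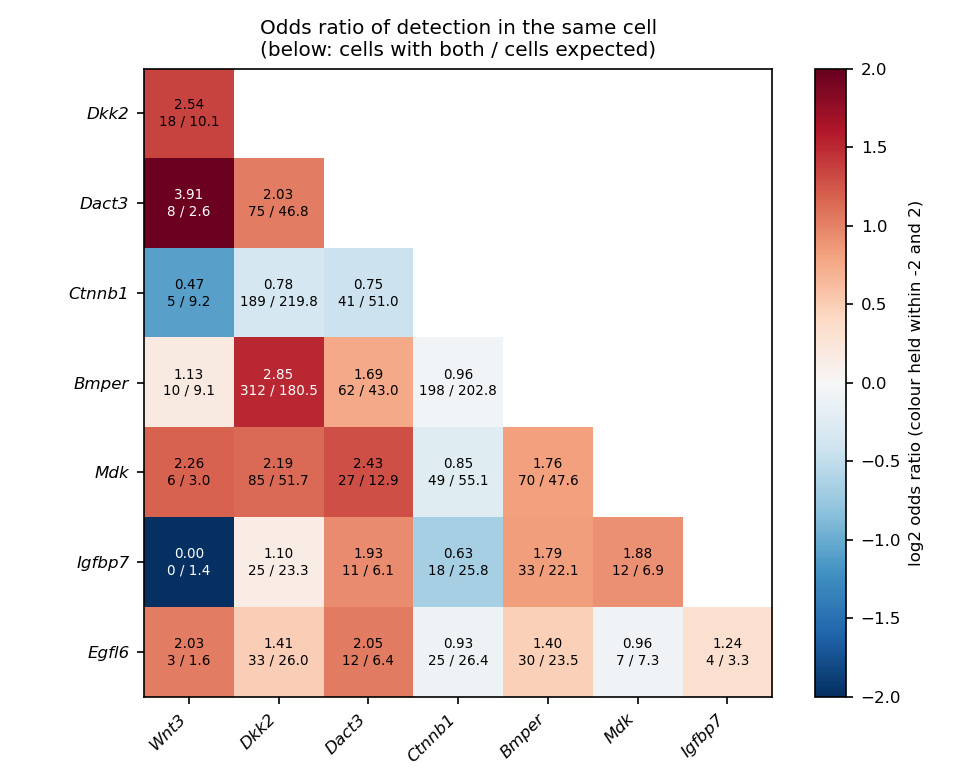
Odds ratio of finding a pair of genes in the same cell, within population and at 5000 UMIs per cell, for the 28 pairs of the 8 genes. Each tile gives the odds ratio and below it the cells found with both genes and the number given by the product of the shares, with colour for the log2 odds ratio. Pairs among Dkk2, Bmper, Mdk and Dact3 lie above 1, with Dkk2 and Bmper at 2.85, and every pair with Ctnnb1 lies below 1.

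Antibody tags gave a readout of the cell surface, and cells of each population were split into tertiles by the UMIs of 1 tag. Each tag's own gene was higher in its upper tertile in every population, and Cd8a stood at 59.0, 75.5, 43.2 and 48.8 CPM in the upper CD8a tertile of double-positive, RFP single-positive, BFP single-positive and double-negative cells, against 3.17, 3.27, 1.60 and 1.48 CPM in the lower. The median CD8a tag count was 121, 63, 42 and 40. The upper tertile was also deeper, with a median of 18741 mRNA UMIs against 11687 in double-positive cells, so CPM is used.

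Dkk2 was higher in the cells with more CD8a. It stood at 268 CPM in the upper against 106 CPM in the lower tertile of double-positive cells, at 164 against 63.6 CPM in RFP single-positive cells, at 199 against 81.6 CPM in BFP single-positive cells and at 81.4 against 56.8 CPM in double-negative cells. The log2 difference was 1.34, 1.36 and 1.29 in the first 3 populations and 0.52 in double-negative cells. Bmper showed the same direction with 98.9 against 46.6 CPM, 78.6 against 36.2 CPM, 61.0 against 31.5 CPM and 39.6 against 22.0 CPM. Its log2 difference lay between 0.85 and 1.11.

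Dact3 stood at 29.6 CPM in the upper against 11.8 CPM in the lower tertile of double-positive cells, at 27.2 against 10.8 CPM in RFP single-positive cells, at 19.6 against 1.82 CPM in BFP single-positive cells and at 11.7 against 5.68 CPM in double-negative cells. Its difference in BFP single-positive cells, log2 3.39, was the widest of the 4. Mdk (42.4 against 9.50 CPM), Egfl6 (30.6 against 7.20) and Igfbp7 (16.6 against 10.4) were also higher in the upper tertile of double-positive cells, and their direction was the same in the other 3 populations. Wnt3 was higher in the upper tertile of the first 3 populations and had 0 UMIs in the upper and 2 in the lower tertile of double-negative cells. Ctnnb1 was lower in the upper tertile, by a log2 of -0.48 to -0.14.

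Among genes with at least 100 UMIs in both tertiles together, 6 of 7 members of the set were higher by 1.5-fold with CD8a in double-positive cells (3.42% of genes were), 5 of 6 in RFP single-positive cells (2.97%), 5 of 6 in BFP single-positive cells (4.04%) and 1 of 3 in double-negative cells (2.23%). None was lower by that fold. The CD8a tag itself was highest in double-positive cells, and Tnfsf4 was higher in its upper tertile too, by a log2 of 1.82 to 2.73, so the tag is not independent of the reporters.

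**Figure D4:**
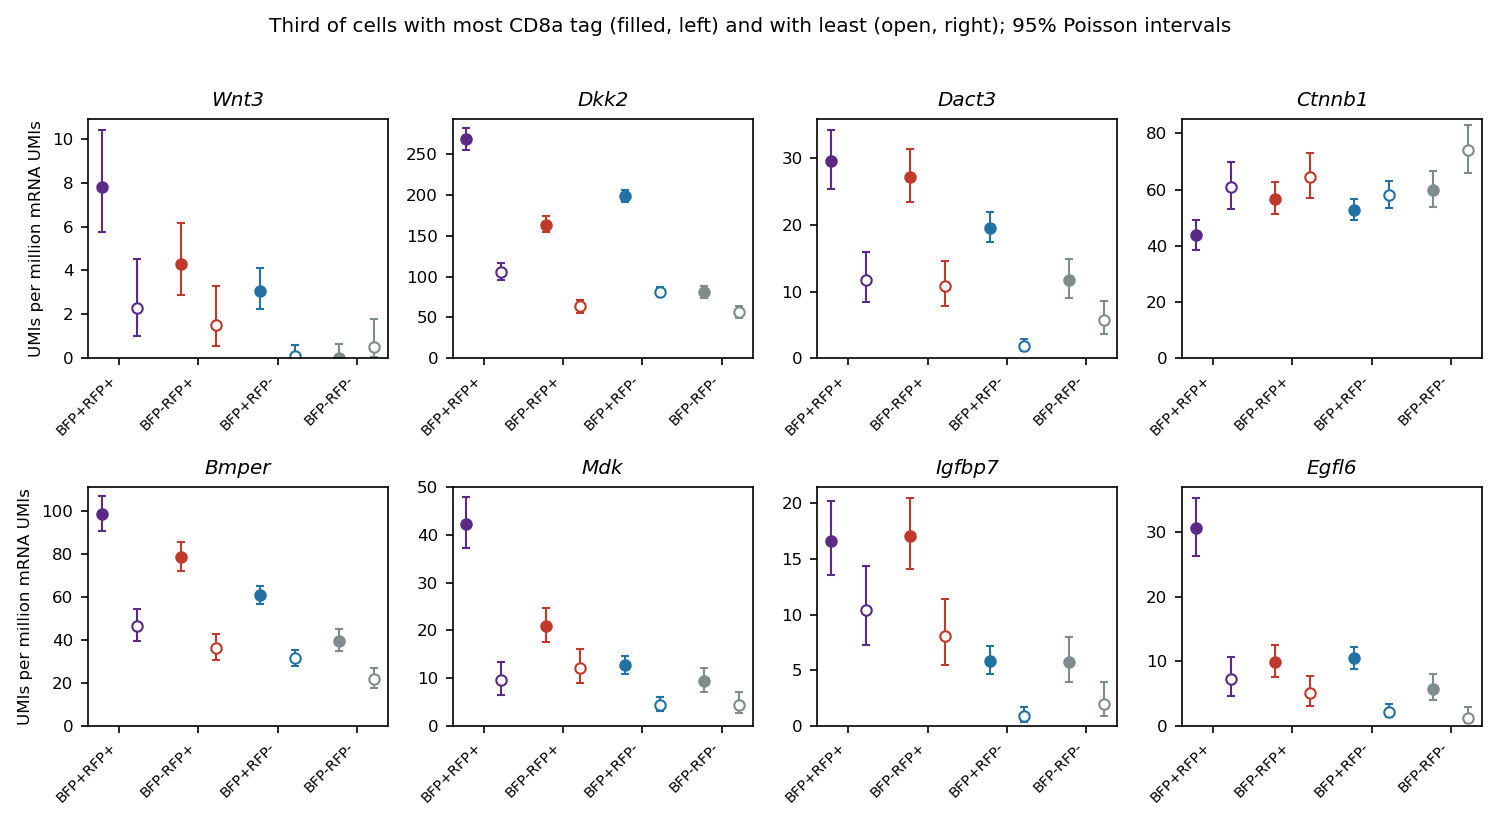
Level in CPM of each of the 8 genes in the upper (filled points) and lower (open points) tertile of the CD8a tag, by population, with exact 95% Poisson intervals. Dkk2 is at 268 CPM in the upper and 106 CPM in the lower tertile of BFP+RFP+ cells, and Ctnnb1 is lower in the upper tertile of all 4 populations.

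CD301b, a C-type lectin, and CD172a (SIRPα) are surface proteins of type 2 conventional dendritic cells, and their tags went the other way for part of the set. Bmper was lower in the upper tertile in all 4 populations, by a log2 of -1.46 to -0.73 for CD301b and of -1.97 to -0.49 for CD172a. Dkk2 was lower too, by -1.07 to -0.27 for CD301b and by -1.22 to -0.21 for CD172a. So was Mdk, by -1.16 to -0.22 for CD301b and by -0.86 to -0.17 for CD172a. Dact3 was lower by -1.26 to -0.11 for CD301b and by -1.44 to -0.15 for CD172a. Wnt3 was lower by -3.22 to -0.32 for CD172a, with 2 UMIs in either tertile of double-negative cells. For Mdk, Dact3 and Wnt3 some of these intervals held 0, among them those of double-positive cells. Ctnnb1 differed by 0.02 to 0.20 with either tag. With CD11b, Mdk was higher by 0.15 to 0.33, with intervals that held 0 in every population. Bmper was lower by -0.46 to -0.02, clear of 0 only in BFP single-positive cells (-0.64 to -0.27). With tags as centred log ratios Bmper ran from -0.56 to 0.15. With CD172a and CD301b, Igfbp7 had opposite signs in different populations with raw tag UMIs. With tags as centred log ratios it was lower in all 4, by -1.93 to -1.06 for CD301b and by -3.89 to -0.0072 for CD172a.

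Clusters were made without these 8 genes, the reporters, Tnfsf4 and Siglech, and they show which cells held the UMIs. Dkk2 was highest in clusters 8 (446 CPM) and 5 (271 CPM) and low in cluster 2 (8.63 CPM). Bmper was highest in the same clusters, at 128 and 96.2 CPM, with cluster 7 next at 60.3 CPM. Mdk stood at 35.5 CPM in cluster 8 and 25.2 CPM in cluster 5, and Dact3 at 25.2 and 36.7 CPM. Wnt3 was highest in cluster 5, 8.56 CPM, which held 53.2% of its UMIs. Neither cluster was named for a cell type. Hsd11b2, Thy1 and Tnfsf4 led cluster 5, and Mgll was among the leading genes of cluster 8, along with Dkk2 and Mdk themselves.

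UMIs of Igfbp7 and Egfl6 were also found in other clusters. Cluster 10, 37 cells with raised macrophage markers and a median of 2862 UMIs, had Igfbp7 at 178 CPM on 26 UMIs, beside 28.0 CPM in cluster 5. Without cluster 10 the log2 ratio of Igfbp7 was 0.41 for BFP within RFP+ and 1.89 for RFP within BFP-. Egfl6 stood at 21.0 CPM in cluster 8 and at 19.7 CPM in cluster 11, the monocyte or macrophage-like cluster, while Ctnnb1 ranged from 43.7 CPM in cluster 8 to 88.8 CPM in cluster 11.

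**Figure D5:**
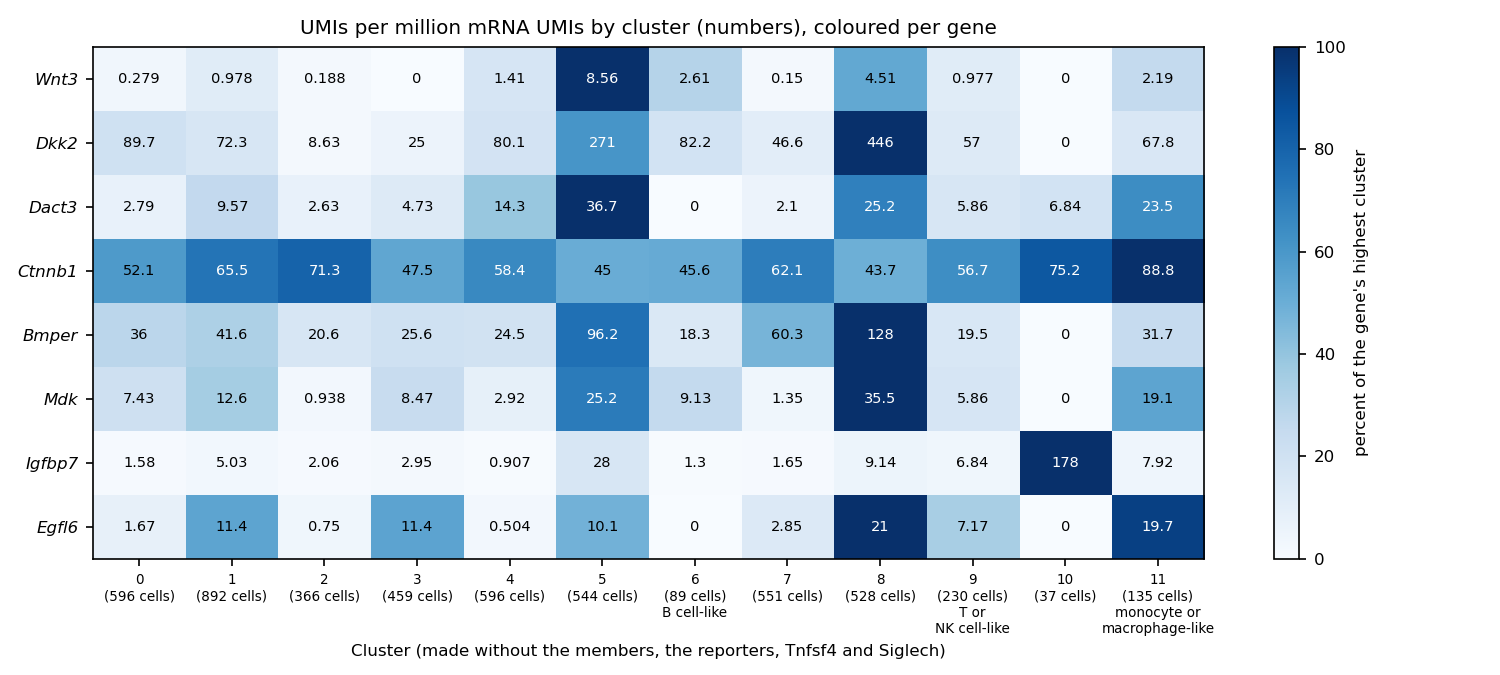
Level in CPM of each of the 8 genes (rows) in each of the 12 clusters (columns, with their cells), printed in the tiles, with colour as a percentage of the gene's highest cluster. Dkk2 is highest in cluster 8 at 446 CPM and Wnt3 in cluster 5 at 8.56 CPM, while Ctnnb1 is lowest in cluster 8 at 43.7 CPM.

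Within a cluster the populations were closer for some genes than for others. In cluster 8 Dkk2 stood at 480, 450, 410 and 477 CPM in double-positive, RFP single-positive, BFP single-positive and double-negative cells, and in cluster 5 at 246, 256, 358 and 167 CPM, so that double-positive cells were below BFP single-positive cells there by a log2 of -0.54. In cluster 1, the one with most cells, the populations differed more, with Dkk2 at 142, 45.7, 70.7 and 23.0 CPM. Mdk kept its difference by RFP, at 47.8, 44.2, 23.3 and 22.2 CPM in cluster 8 and 36.5, 22.0, 16.5 and 12.6 CPM in cluster 5. Bmper stood at 137, 141, 116 and 116 CPM in cluster 8. Wnt3 had 0 UMIs in the double-negative cells of both clusters.

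With the clusters held at the same mix in both populations, an alternative chosen after the data had been seen, the log2 ratio of Dkk2 for RFP was 0.09 within BFP+ and 0.12 within BFP-, against 0.83 and 1.01 without it. For BFP it was 0.36 within RFP+ and 0.37 within RFP-. The ratio for RFP of Bmper became 0.38 within BFP+ and 0.43 within BFP-, against 0.94 and 0.91, and that of Dact3 0.40 and 0.49, against 1.15 and 1.31, all under 1.5-fold. Mdk and Igfbp7 had lower ratios for RFP than without it but stayed past 1.5-fold, with 1.04 and 0.96 for Mdk, against 1.79 and 1.30, and 1.34 and 1.23 for Igfbp7, against 2.28 and 2.04. Wnt3 had 1.23 within BFP+, against 2.04, and 3.41 within BFP-, against 3.16. Egfl6 had 1.23 within BFP+, against 1.79, and 0.27 within BFP-, against 1.24. For BFP, Mdk had 0.29 within RFP+, against 0.91, and Egfl6 had 1.47 within RFP+, against 1.71, and 0.52 within RFP-, against 1.16. The clusters may differ in genes that differ between populations, and their part in these differences was not tested.

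The other genes of these pathways were counted in the same way, over lists chosen with earlier results known, and values are given for double-positive, RFP single-positive, BFP single-positive and double-negative cells in that order. All kept cells entered, also those of clusters named for another cell type. Over all genes, 1.83% to 4.03% were higher and 2.66% to 7.13% lower by comparison, so nothing is read from how many genes of a list passed. Of 19 Wnt ligands, 1 or 2 had enough UMIs in a comparison, and Wnt3 was the only one past 1.5-fold. Wnt11, also a Wnt ligand, stood at 18.5, 14.5, 15.4 and 19.2 CPM and did not pass, and Wnt6 had under 100 UMIs in all. Of 18 Wnt receptors 5 were counted, and only Ryk, a receptor tyrosine kinase-like Wnt receptor, was lower, at 2.62, 4.57, 2.78 and 5.11 CPM, in BFP+ against BFP- cells within both RFP states. Lrp6 and Ror1, the receptors with most UMIs, passed in none, at 42.7, 42.3, 40.4 and 48.3 CPM for Lrp6 and 27.5, 26.8, 23.5 and 25.5 CPM for Ror1. Of 17 extracellular Wnt inhibitors 4 or 5 were counted. Dkk2 was higher in all 4 comparisons, and Dkkl1 was higher in 1 and lower in 1, while Znrf3 and Rnf43 did not pass in any. Of 16 intracellular regulators 11 were counted, and only Dact3 passed, for RFP, while the kinase genes Gsk3b and Csnk1a1, whose products act on β-catenin, had log2 ratios of -0.17 to 0.03. Dkkl1 and, below, Lef1, Myc and Hbegf were chosen after their values had been seen.

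Of 12 counted β-catenin partners, 0 to 1 were higher and 0 to 2 lower by 1.5-fold in a comparison. Of 6 or 7 counted Wnt response genes, 0 to 1 went each way. Beside the shares of all genes just given, nothing is read from these counts. Among the partners, Bcl9l, a β-catenin coactivator, was higher for RFP by 0.81 within BFP+ and 0.69 within BFP-, and Ctnnd1, p120-catenin, was lower by -1.02 and -0.61. Tcf7, which encodes the factor TCF1, stood at 203, 141, 150 and 109 CPM and passed in no comparison, nor did Ctnna1 (α-catenin), at 208, 250, 271 and 302 CPM. Among the Wnt response genes, Ccnd2 (cyclin D2) was higher at 0.61 for BFP within RFP+ and at 0.76 for RFP within BFP+. Lef1, also among the leading genes of the T or NK cell-like cluster, was lower in double-positive than in RFP single-positive cells. Myc was lower in BFP single-positive and in RFP single-positive cells than in double-negative cells.

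No BMP ligand of 13 had enough UMIs in any comparison, and Bmp2 and Bmp8a, those with most, had 109 and 36 UMIs in all. Of 10 counted BMP receptors and Smads, 0 to 1 passed in each comparison, and Smad1 and Smad4, those with most UMIs, had log2 ratios of -0.25 to 0.28. Of 4 counted BMP antagonists, Bmper was higher for RFP, Nbl1 higher for BFP within RFP+ by 0.66, and Crim1, named after its values had been seen, lower in 2 comparisons. Twsg1, another BMP-binding protein gene, passed in none. Of 8 BMP response genes 5 were counted. Id1, one of them, stood at 15.4, 20.2, 9.86 and 8.20 CPM and was higher for RFP by 0.65 within BFP+ and 1.30 within BFP-. Id2, the BMP response gene with most UMIs, had log2 ratios for RFP of -0.37 and -0.43, and Smad7, an inhibitory Smad, of -0.02 and 0.19, none of them past 1.5-fold. Of 15 genes of the IGF system 6 were counted, and Igfbp7 was higher in both comparisons of RFP. Igf1, the ligand of the IGF receptor, stood at 2.90, 5.97, 1.94 and 4.91 CPM and was lower in BFP+ cells by -1.03 within RFP+ and -1.34 within RFP-. The summed monocyte and macrophage markers, at 156, 447, 115 and 557 CPM, were lower in BFP+ cells too. The part of such cells in the ratios of Igf1 and, below, Lrp1 was not tested. Of 14 genes of the midkine list 8 or 9 were counted, and Mdk was higher in 3 comparisons. Lrp1, an endocytic receptor for midkine among many ligands, stood at 1.41, 2.35, 2.44 and 4.84 CPM and was lower in the 3 comparisons in which it had enough UMIs. The integrin genes Itga4 and Itgb1 passed in none, with log2 ratios of -0.15 to 0.07, and nor did Igf1r and Insr, the receptors of IGF1 and insulin, with -0.24 to 0.18. Of 16 EGF family genes 4 or 5 were counted, and Egfl6 was higher in all 4 comparisons. Egf, an EGF receptor ligand, stood at 21.4, 22.9, 11.4 and 7.33 CPM and was higher for RFP by 0.91 and 1.64. Hbegf and Areg, other ligands of that receptor, differed in direction between comparisons.

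The genes whose levels most resembled those of the set were found over 37 cluster-by-population units among 7932 genes, by Pearson's r of log2(CPM + 10). These units share libraries, depth and cells, so r is a description without a p. Tcf4 (r = 0.83), Snx11 and Icosl (0.83 each) were most like Dkk2, with Bmper at 0.82. Bmper was most like Fggy (0.92) and Icosl (0.91), Dact3 most like Nrg2 (0.87) and Gprin2 (0.86), and Igfbp7 most like Nrgn (0.82) and Il1r1 (0.79). Mdk and Egfl6 had Atp1b1 in common at 0.81 and 0.78. Ctnnb1 was most like Daglb (0.83) and Dst (0.77), and it ran against Dkk2 at r = -0.53.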

How the data were processed

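The authors deposited 1 matrix of raw UMI counts, with 6079 barcodes as columns and 22548 genes, 4 hashtags and 4 antibody tags as rows. Per the file headers it came from Cell Ranger 7.0.0, and GRCm39 (mm39) is the build in the submitters' processing notes. How barcodes were called as cells is not given in the sources used here. The 8 genes and the pathway and marker lists were chosen with earlier results of these data known.

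Each population was taken as 1 sample. Cells were assigned by the hashtag with at least 80% of their hashtag UMIs, which left out 699 of 6079 barcodes. Of the rest, 213 had under 1000 mRNA UMIs and 144 had over 10% mitochondrial UMIs. Hashtag doublets fall to the share rule, doublets within a population were not removed, and no doublet caller was run. Kept cells held 80355067 mRNA UMIs.

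UMIs were summed per population and compared as log2 ratios of CPM with 0.5 UMI added, with exact 95% conditional binomial intervals, and with exact Clopper-Pearson intervals for shares of cells. A gene was counted as higher or lower at 1.5-fold or more, with at least 100 UMIs in both populations together. Clusters (Leiden, resolution 0.5) used 2000 variable genes, 30 components and 15 neighbours after scaling to 10000 UMIs per cell, and were named from markers only. Named genes are the 8, and from each list those counted the same way in both states of a reporter and the 2 with most UMIs. Genes named beyond these are said to be so. The 5 genes of highest r were ranked per gene of at least 500 UMIs. The alternatives were other hashtag calls (HTODemux in Seurat 5.3.0), depth and mitochondrial limits, TMM scaling (edgeR 4.0.16, for scaling only), another pseudocount, equal weight per cell and leaving out cells or clusters. Of these, the same mix of clusters and leaving out cluster 10 were chosen after the data had been seen. The sum and ratio steps were tested on simulated data. Software was Python 3.11.15, numpy 2.4.6, scipy 1.17.1, pandas 2.3.3, scanpy 1.11.5, matplotlib 3.10.9 and R 4.3.3.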

Additional observations from a re-analysis of the deposited data

Results flagged for a closer look

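For 3 of the 8 genes, the difference between tag tertiles took opposite signs in different populations, each with an interval clear of 0, when cells were ranked by raw tag UMIs. The difference between populations was not tested. Dkk2 in the upper over the lower CD11b tertile had a log2 ratio of -0.18 (-0.31 to -0.06) in double-positive cells, 0.48 (0.30 to 0.66) in RFP single-positive cells, 0.39 (0.27 to 0.51) in BFP single-positive cells and -0.29 (-0.54 to -0.04) in double-negative cells. It was thus higher with CD11b in the populations with 1 reporter and lower in the other two.

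Egfl6 with CD11b had a log2 ratio of 1.61 (1.02 to 2.28) in double-positive cells, -1.31 (-2.05 to -0.60) in RFP single-positive cells, -0.61 (-1.18 to -0.05) in BFP single-positive cells and -2.87 (-5.46 to -1.28) in double-negative cells. Double-positive cells alone had the positive sign. The value in double-negative cells rests on 3 UMIs in the upper and 18 in the lower tertile. In that population 5 cells held 78.0% of all Egfl6 UMIs, which the interval does not cover. With tags as centred log ratios the values ran from -3.06 to 0.78 over the populations for Egfl6, and from -0.13 to 0.65 for Dkk2.

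Igfbp7 with CD172a had 0.71 (0.17 to 1.31) in double-positive cells and -1.91 (-2.44 to -1.41) in RFP single-positive cells. With CD301b it had -0.61 (-1.12 to -0.11) in double-positive cells, -1.52 (-2.04 to -1.02) in RFP single-positive cells and 0.87 (0.17 to 1.67) in BFP single-positive cells. This change of sign is absent with tags as centred log ratios, where Igfbp7 was lower in the upper tertile of all 4 populations, by -1.93 to -1.06 for CD301b and -3.89 to -0.0072 for CD172a, so its direction depends on the scaling of the tags.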

How the results depend on the processing

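No paired analysis was possible because 1 capture gave every population, each without a replicate. The counts of genes of the 8 that were higher by 1.5-fold were recomputed under 13 alternatives, and 0 log2 ratios changed sign except those of Igfbp7 for BFP. With the same mix of clusters, the count was 2, against 4, in double-positive over RFP single-positive cells, 0, against 2, in BFP single-positive over double-negative cells, 4, against 7, in double-positive over BFP single-positive cells and 2, against 6, in RFP single-positive over double-negative cells. In BFP single-positive over double-negative cells the count became 4, against 2, at a hashtag share of at least 95%, with each cell given the same weight, without clusters named for another cell type, and without the 10% of cells with most UMIs. Of the 32 log2 ratios of the 8 genes, 20 moved beyond their counting interval with the same mix of clusters, 7 without the 10% of cells with most UMIs, 5 with equal weights, 5 without the 5 cells with most UMIs of the gene, 4 at the 95% share and 1 with TMM. None moved with the HTODemux calls, another depth or mitochondrial limit, 5 UMIs added or without cluster 10. Igfbp7 for BFP within RFP- was also -0.01 at the 95% share and -0.04 with 5 UMIs added. Of 123 tag comparisons of these genes with at least 20 UMIs in both tertiles together, 31 were higher and 33 lower by 1.5-fold. Over all genes with at least 100 UMIs, 1.90% to 8.22% were higher and 3.03% to 9.58% lower, by tag and population. The genes were chosen on these cells, so nothing is read from these counts. For the 8 genes the counts were 30 and 55 of 124 with centred log-ratio tags, and 28 and 29 of 124 with a split at the median. The share over all genes was not computed for either setting. The depth limits Wnt3, with 4 UMIs in double-negative cells. With 1 capture, mice, sorts and captures add spread that none of these intervals holds.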
